A study of Mus musculus with 14 samples.

Results

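Elastic fibre genes were followed through the muscularis of mouse colon and jejunum, which is the muscular layer of the gut together with the nerves, vessels and interstitial cells inside it. The members were taken by name: Eln for elastin, Fbn1 and Fbn2 for the fibrillins, Fbln1, Fbln2 and Fbln5 for the fibulins, Mfap4 and Mfap5 for microfibril-associated proteins, and Lox and Loxl1 for lysyl oxidases. These are 10 of the 40481 genes in the bulk count table, and all 10 were among the 20886 genes with enough counts to be tested. The list was chosen by name after Eln had been noted as high in knockout smooth muscle nuclei, so the measured values of that contrast are given here only as a description. Bulk RNA-seq libraries came from C57BL/6 mice of 2 genotypes, labelled "Carmn iKO" (KO here) and "WT mTmG" (WT here), with 3 libraries per genotype from colon and 3 from jejunum. Carmn encodes a long non-coding RNA known from smooth muscle cells, and mTmG is a reporter allele that switches from a red to a green membrane protein after Cre recombination. The Cre driver, the age of the mice, any treatment and whether equal library tags mark 1 animal were not given in the sources used here. Single nuclei came from 1 WT and 1 KO colon library, in which RNA and open chromatin regions were counted together.

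Elastic fibres give a tissue its recoil. Secreted elastin is laid down on a scaffold of microfibrils built mainly from fibrillins, fibulins help to bring elastin, scaffold and enzyme together, and lysyl oxidases then link the elastin chains covalently. In the gut and in vessel walls both smooth muscle cells and fibroblasts are known to make these proteins.

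Promoter sequences from RefSeq (GRCm38.p6) matched 4 members, Fbn1, Fbln1, Fbln2 and Fbln5. The 250 bases before the start are printed for Fbln5, whose stretch before the first of 2 RefSeq starts lay wholly within a listed open chromatin region in both nuclei libraries, and for the first of 2 Fbln1 starts, where neither library listed a region and whose gene had most of its nuclear RNA in fibroblast-like nuclei. Capitals mark matches to the GC box GGGCGG on either strand. For Fbln5 the bases after the RefSeq start matched no GENCODE M21 transcript, and the printed stretch lies beyond the GENCODE start at 101819055. Fbln5 is read on the minus strand from chr12:101819120-101819369 and Fbln1 on the plus strand from chr15:85205699-85205948.
Fbln5: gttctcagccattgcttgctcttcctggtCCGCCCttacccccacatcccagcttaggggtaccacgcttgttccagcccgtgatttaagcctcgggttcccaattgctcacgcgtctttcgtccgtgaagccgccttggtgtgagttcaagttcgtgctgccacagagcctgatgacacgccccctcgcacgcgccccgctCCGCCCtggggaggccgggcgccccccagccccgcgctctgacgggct
Fbln1: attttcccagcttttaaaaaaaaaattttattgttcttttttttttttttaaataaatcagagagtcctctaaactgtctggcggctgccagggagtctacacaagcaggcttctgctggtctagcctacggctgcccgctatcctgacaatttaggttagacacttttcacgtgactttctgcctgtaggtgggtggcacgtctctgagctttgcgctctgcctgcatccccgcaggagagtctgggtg
The Fbln5 stretch held 2 GC boxes and was 65.2% G or C, the Fbln1 stretch held none and was 46.4%, and the median over 32851 promoters of the same length was 52.4%. The stretches before the second starts, not printed because they overlap exons, went the other way: that of Fbln1 was 62.4% G or C with 1 GC box, and that of Fbln5 49.6% with none. A GC box was present in 32.7% of all these promoters. The AP-1 motif TGANTCA (6.75% of promoters), the TEAD motif GGAATG (12.6%), the TATA box TATAAA (12.4%) and the CArG box of serum response factor (1.47%) were searched on both strands and matched in neither stretch.

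In GRCm38 with the GENCODE M21 annotation the members lie on 8 chromosomes, all as protein-coding genes. Eln lies on the minus strand at chr5:134702593-134747323, Fbln1 on the plus strand at chr15:85205949-85286535, Fbln5 on the minus strand at chr12:101746565-101819055 and Mfap4 on the plus strand at chr11:61485431-61488900. Fbn1 lies at chr2:125300594-125507993 (minus strand), Fbln2 at chr6:91212455-91272540 (plus strand), Mfap5 at chr6:122505845-122529290 (plus strand) and Loxl1 at chr9:58287738-58313186 (minus strand). Fbn2 and Lox both lie on the minus strand of chromosome 18. A gene on the opposite strand overlaps Eln (Gm30003), Fbn1 (Gm9913), Fbn2 (Gm26507), Lox (AC161119.1) and Mfap4 (Mapk7). Strand use in read counting was not given in the sources used here, and reads of these pairs may not be separated.

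Library totals ranged from 24254905 to 44315104 counts, and the 10 smooth muscle markers were present in every bulk library, at a summed 34878 to 93637 CPM (counts scaled to a common library size with edgeR's TMM factors). Carmn RNA was higher in every KO than in every WT jejunum library, 817 to 996 against 206 to 326 CPM. In colon it was higher in KO on average, 304 to 718 against 171 to 351 CPM, but KO t4 lay below WT t7. Higher values in KO go against the label of a knockout for whole-gene counts. In smooth muscle-like nuclei Carmn was lower, 629 CPM in the KO against 1666 in the WT library. KO colon t4 stood apart with 12341 CPM of summed fibroblast markers, against 2286 to 5408 in the other 5 colon libraries, and with 1023 CPM of macrophage markers against 285 to 477. Most of that fibroblast sum was Col1a1 (4757 CPM), Col3a1 (4442) and Col1a2 (2583). Pdgfra was also highest in t4 (232 CPM), but Dpt was lowest there (75.5 CPM). Lum (66.7), Pi16 (29.0) and Kcnn3 (157 CPM) lay within the range of the other colon libraries. KO jejunum m1 had 6335 CPM of fibroblast markers against 2122 to 2821 in the other 5 jejunum libraries, 1144 CPM of macrophage markers against 141 to 648 and 93637 CPM of smooth muscle markers against 48314 to 53352. Fold changes of the members and lists that rest on these libraries are given with and without them. Counts of list genes at an unadjusted p below 0.05 and the likeness to Eln are given with all libraries only. The part of these markers in the results was not tested. In bulk tissue a change in the number of cells of a type and a change in RNA per cell cannot be told apart. The labels do not say whether libraries came from separate animals, so adjusted p-values measure the spread between libraries.

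Among the WT libraries the order of levels was compared per kilobase of exon. In WT colon Fbln1 led with 77.2 ± 17.0 CPM per kb (SD, n = 3), followed by Loxl1 at 52.2 ± 16.8 and Mfap4 at 39.3 ± 4.72. The ranges of these neighbours overlapped, whereas Mfap4 lay above Fbn1 (23.6 ± 7.18) in every library. Fbln2 followed at 18.7 ± 3.17 and Eln at 11.95 ± 5.91, and Fbln5, Lox, Mfap5 and Fbn2 lay between 5.29 and 1.66 CPM per kb with overlapping neighbours. In WT jejunum Loxl1 was highest (42.2 ± 1.84), separate from Fbln1 at 23.7 ± 4.67, and Eln stood at 5.75 ± 0.267, the last of 6 members above Fbln5. The libraries within WT colon were not alike: t6 was the lowest of 3 for all 10 members. Epithelial markers were also highest in WT colon t6, at 5960 CPM against 145 and 2812 in the other WT colon libraries.

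**Figure D1:**
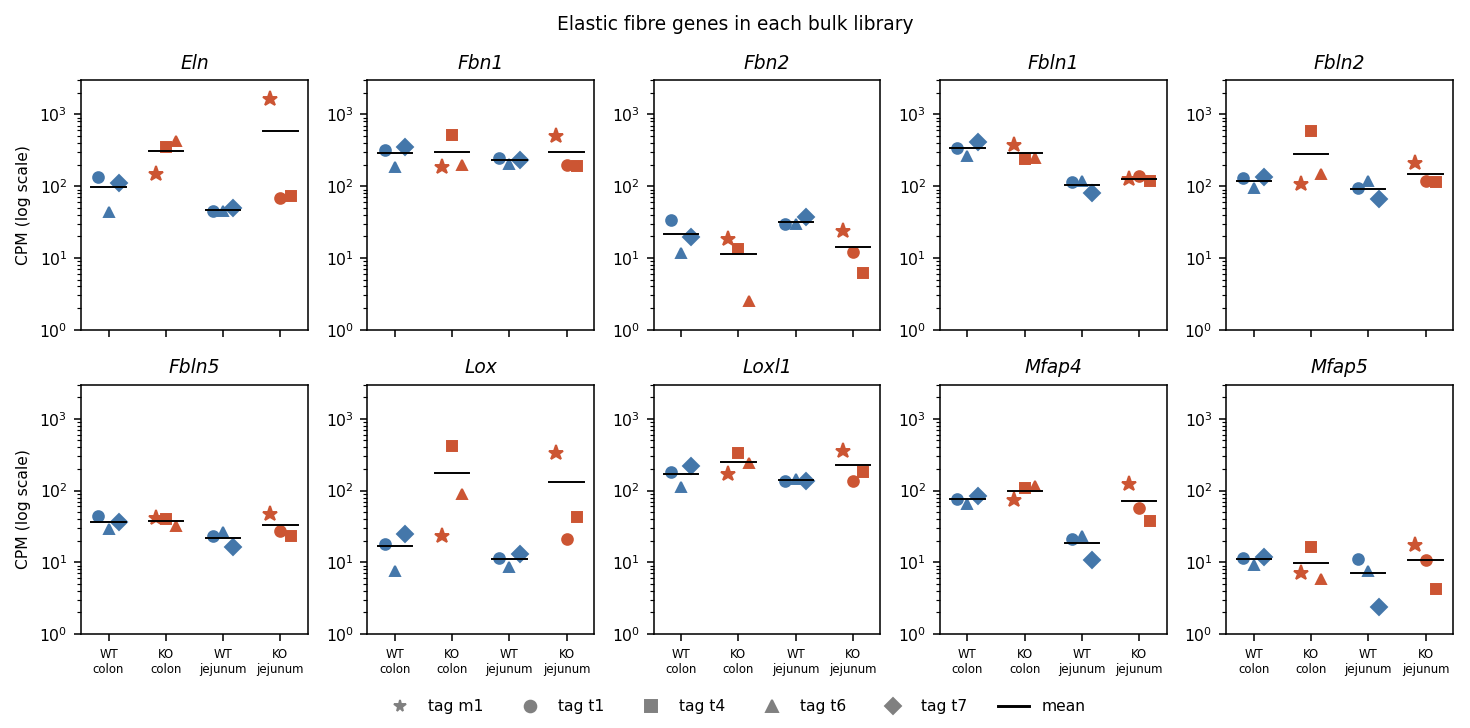
CPM of each elastic fibre gene (log axis) in the 12 bulk libraries, with 1 point per library, shapes for the library tags, WT in blue, KO in red and a line at the group mean. Eln in KO jejunum m1 (1644 CPM) and Lox in KO colon t4 (417 CPM) and KO jejunum m1 (330.1 CPM) lie far above the other libraries of their groups.

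The first comparison asked whether elastic fibre genes differed between KO and WT colon. Summed smooth muscle markers were lower in every KO colon library (34878 to 47530 CPM) than in WT (51782 to 75568 CPM), with 0 of 10 log2 fold changes above 0 and a median of -0.61, and their part in the colon values was not tested. None of the 10 passed an edgeR adjusted p of 0.05, where 0.388% of all genes tested did. At an unadjusted p below 0.05 there were 2, Lox and Fbln2, both higher in KO, as were 6.70% of all genes. DESeq2 called 1, Lox, where it called 960 of all genes, and limma voom 0, where it called 95. Eln was the only member whose KO and WT colon values did not overlap, with KO higher, a pattern shown by 8.79% of all genes. Of the 10 fold changes 7 were above 0, with a median log2 fold change of 0.23 against 0.00 for all genes tested. Without KO colon t4, 6 were above 0, the median was 0.06 and no member had an unadjusted p below 0.05.

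Eln, the elastic core protein, stood at 135 (t1), 43.2 (t6) and 112 (t7) CPM in WT colon and at 147 (m1), 357 (t4) and 422 (t6) CPM in KO colon. The KO libraries were all higher, although m1 exceeded the highest WT library by little. The log2 fold change was 1.67 (SE 1.04, 95% interval -0.63 to 3.97, edgeR adjusted p = 0.504). It stayed between 1.35 and 2.02 with any 1 library left out, at 1.56 without KO colon t4.

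Lox, which starts the cross-linking of elastin and collagen, had 18.1, 7.67 and 24.8 CPM in WT colon (t1, t6, t7). In KO colon it had 23.5 (m1), 417 (t4) and 89.2 (t6) CPM. Thus t4 and t6 lay above all WT libraries and m1 lay among them. The log2 fold change was 3.39 (SE 1.16, 95% interval 0.82 to 5.96, edgeR adjusted p = 0.223, DESeq2 0.0407). Without KO colon t4 it was 1.75 (edgeR adjusted p = 0.489). Loxl1, a lysyl oxidase that acts mainly on elastin, had 183, 112 and 221 CPM in WT and 169, 329 and 241 CPM in KO colon, which overlap (log2 fold change 0.52, SE 0.37, edgeR adjusted p = 0.562, or 0.26 without t4).

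Fbln2, a fibulin of basement membranes and elastic tissue, was high in a single colon library. KO colon t4 had 589.95 CPM, the other KO colon libraries 109 (m1) and 146 (t6), and WT colon 128, 95.6 and 132 CPM. The log2 change of 1.24 (SE 0.55, edgeR adjusted p = 0.331) became 0.10 without t4. Fbln1 ranged from 242 to 375 CPM in KO and from 263 to 412 CPM in WT colon. Fbln5, which binds elastin and lysyl oxidases, ranged from 32.4 to 41.1 CPM in KO and from 29.3 to 43.97 CPM in WT colon, and both fibulins overlapped.

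Of the microfibril genes, Fbn1 had 185 (m1), 518 (t4) and 199 (t6) CPM in KO colon and 319.9, 187 and 351 CPM in WT, again with t4 apart. Its log2 fold change of 0.07 (SE 0.46) became -0.57 without t4. Fbn2, the fibrillin best known from developing tissue, was lower on average in KO colon, with 18.2, 13.3 and 2.48 CPM against 34.3, 11.7 and 19.7 in WT (log2 fold change -0.95, SE 0.66, edgeR adjusted p = 0.555). Mfap4 (73.1 to 115 CPM in KO, 65.9 to 83.9 in WT) and Mfap5 (5.85 to 16.5 in KO, 9.23 to 12.02 in WT) overlapped between genotypes, with log2 fold changes of 0.39 and -0.16 that became 0.31 and -0.76 without t4.

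In jejunum, macrophage markers summed to 466 to 1144 CPM in KO against 141 to 319.6 CPM in WT, without overlap (7 of 7 fold changes above 0, median 1.76, or 1.12 without m1). Blood endothelial markers did not overlap either (265.5 to 499 against 105 to 245 CPM). Summed vascular mural markers were lower in KO without overlap (2134 to 3454 against 4070 to 5455 CPM), most of the sum being Rgs5. By gene, 5 of 7 mural fold changes were above 0 (median 0.32). The part of these markers in the jejunum values was not tested. Again 0 of 10 members passed the edgeR threshold (0.215% of all genes did). The unadjusted p was below 0.05 for 3, Eln, Lox and Mfap4, all higher in KO (7.52% of all genes). DESeq2 called these 3, where it called 805 of all genes. Limma voom called 0, where it called 87 of all genes. KO and WT jejunum values did not overlap for 5 members: Eln, Fbln1, Lox and Mfap4 were higher (11.0% of all genes) and Fbn2 lower in KO (11.2%). Of the 10 fold changes 9 were above 0, with a median of 0.65 against 0.02 for all genes. KO jejunum m1 was the highest of the 3 KO libraries for 9 of the 10 members. Without it 8 fold changes were above 0 and the median was 0.24.

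Eln had 45.8 (t1), 44.8 (t6) and 49.0 (t7) CPM in WT jejunum, the narrowest spread of its 4 groups. KO jejunum had 1644 (m1), 68.1 (t1) and 73.5 (t4) CPM. All KO libraries were above all WT libraries, but m1 was 22.4 times the next KO library. The log2 fold change was 3.68 (SE 1.13, 95% interval 1.19 to 6.17, edgeR adjusted p = 0.205, DESeq2 0.0209) and fell to 0.58 (edgeR adjusted p = 0.781) without m1.

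Lox had 11.3, 8.65 and 12.9 CPM in WT jejunum and 330.1 (m1), 21.2 (t1) and 43.1 (t4) CPM in KO. Its KO libraries were also all above WT, with m1 far apart. The log2 fold change was 3.58 (SE 1.17, 95% interval 0.98 to 6.18, edgeR adjusted p = 0.229, DESeq2 0.0346), and 1.52 (edgeR adjusted p = 0.690) without m1. Loxl1 had 359.5 CPM in m1 and 135 and 184 in the other KO libraries, against 135 to 146 in WT, and overlapped (log2 fold change 0.70, SE 0.37, edgeR adjusted p = 0.442, or 0.17 without m1).

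Mfap4, a microfibril protein that binds elastin and lysyl oxidase, had the jejunum fold change least dependent on m1 among the 3 members with the smallest p. WT jejunum held 21.4 (t1), 23.5 (t6) and 10.9 (t7) CPM, and KO jejunum 124 (m1), 56.6 (t1) and 38.0 (t4) CPM. Every KO library was above every WT library. The log2 fold change was 1.97 (SE 0.42, 95% interval 1.05 to 2.88) with an edgeR adjusted p of 0.0900, over the threshold, and a DESeq2 adjusted p of 0.000633. Without m1 it was 1.32 (edgeR adjusted p = 0.164).

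Fbn2 went the other way, with 23.96 (m1), 11.9 (t1) and 6.20 (t4) CPM in KO jejunum and 29.4, 29.3 and 37.0 CPM in WT. The groups did not overlap, and the log2 fold change was -1.19 (SE 0.66, 95% interval -2.66 to 0.27, edgeR adjusted p = 0.474). Without m1 it was -1.84, and without KO jejunum t4 -0.85. Fbn1 had 498 CPM in m1 and 195 and 193 in the other KO libraries against 205 to 249.3 in WT, so that its log2 fold change of 0.37 became -0.26 without m1. Fbln1 was 117 to 140.3 CPM in KO and 80.03 to 116 in WT, without overlap but with a small log2 change, 0.30 (SE 0.24, edgeR adjusted p = 0.615). Fbln2 (114 to 209 against 67.1 to 117 CPM), Fbln5 (23.5 to 47.4 against 16.1 to 26.3 CPM) and Mfap5 (4.28 to 17.4 against 2.37 to 11.0 CPM) overlapped, each with m1 highest. Their log2 fold changes of 0.66, 0.58 and 0.63 became 0.29, 0.19 and 0.09 without m1.

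**Figure D2:**
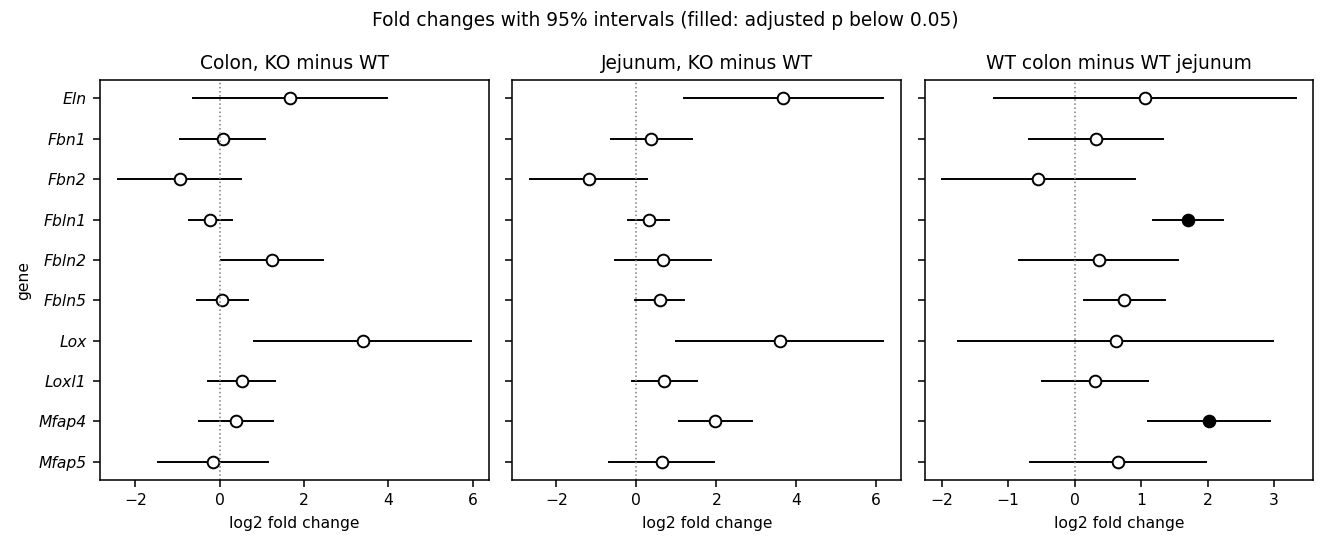
Log2 fold changes (horizontal axis) of the 10 elastic fibre genes in 3 comparisons, with 95% intervals from the edgeR fit and filled points for adjusted p below 0.05. Eln and Lox have the widest intervals, and only Fbln1 and Mfap4 in WT colon minus WT jejunum are filled.

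Whether KO changed the genes differently in colon and jejunum was tested directly. No member passed the edgeR threshold, nor did any gene (0% of all genes), and DESeq2 called no member, where it called 37 genes. Mfap4 alone had an unadjusted p below 0.05 (4.16% of all genes), with a colon change 1.57 lower on the log2 scale than the jejunum change (SE 0.57, edgeR adjusted p = 0.941). That difference was -0.90 without KO jejunum m1. For Eln the difference was -2.004 (SE 1.45, 95% interval -5.20 to 1.19), and 1.12 without KO jejunum m1, so that 1 library set its sign. The colon and jejunum changes of Lox differed by -0.19 on the log2 scale, and the 95% interval of -3.51 to 3.14 includes large differences in both directions.

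Position along the gut was compared in WT, where 2 of the 10 members passed the edgeR threshold, both higher in colon (1.56% of all genes passed, 0.694% higher in colon). Fbln1, a fibulin of connective tissue and vessel walls, had 336 (t1), 263 (t6) and 412 (t7) CPM in WT colon and 114, 116 and 80.03 CPM in WT jejunum. The groups were well apart, with a log2 difference of 1.70 (SE 0.24, 95% interval 1.17 to 2.23, edgeR adjusted p = 0.00774). With any 1 library left out the adjusted p stayed between 0.00454 and 0.0415. Taking the tag or the animal as replicate block gave an edgeR adjusted p of 0.0561 or 0.124, over the threshold. Mfap4 had 77.0, 65.9 and 83.9 CPM in WT colon and 21.4, 23.5 and 10.9 CPM in WT jejunum, a log2 difference of 2.02 (SE 0.42, 95% interval 1.11 to 2.94, edgeR adjusted p = 0.0391). That call was lost without any 1 of 9 libraries (WT colon t1, t6 or t7, KO colon m1 or t6, WT jejunum t1, t6 or t7, KO jejunum t1), where the adjusted p reached 0.141 and the difference lay between 1.69 and 2.18. The same blocks also lost the Mfap4 call (edgeR adjusted p 0.144 and 0.249). Fbln5 values also did not overlap (29.3 to 43.97 CPM in colon, 16.1 to 26.3 in jejunum), as for 11.2% of all genes with colon higher, and differed by 0.75 on the log2 scale (SE 0.28, edgeR adjusted p = 0.256). Over all 10 members 9 differences were above 0 with a median of 0.63, against 0.04 for all genes, and Fbn2 was the exception at -0.54 (SE 0.66). Summed fibroblast markers were 3023 to 5408 CPM in WT colon and 2439 to 2821 CPM in WT jejunum, and their part in the Fbln1 and Mfap4 differences was not tested.

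Genes that work with the members were described from 4 lists. None of the 23 partner genes of fibrillin and elastin passed the edgeR threshold between KO and WT in colon or jejunum. With all libraries, an unadjusted edgeR p below 0.05 was reached by 6 of 23 partners in colon, where 14.5% of all genes did. In jejunum 8 of 23 reached it, where 13.2% of all genes did. The median log2 fold change of the partners was 0.06 in colon and 0.12 in jejunum, or -0.08 without KO colon t4 and -0.07 without KO jejunum m1. Partners with the highest levels were Hspg2 for perlecan (log2 fold change 0.53 in colon, SE 0.27, and 0.66 in jejunum, SE 0.27) and Dcn for decorin (-0.11 and 0.27, SE 0.31 each). Without KO colon t4 the colon values were 0.57 for Hspg2 and -0.29 for Dcn. Without KO jejunum m1 the jejunum values were 0.47 and -0.19. In WT colon against WT jejunum 3 partners passed, all lower in colon (0.862% of all genes). Ltbp2, a latent TGF-beta binding protein, had 11.4 to 16.3 CPM in colon and 80.6 to 131 in jejunum (log2 difference -2.96, SE 0.49, edgeR adjusted p = 0.0172). Efemp1 for fibulin-3 had 50.4 to 88.3 and 141 to 243 CPM (-1.55, SE 0.31, edgeR adjusted p = 0.0340). Thsd4, a microfibril-associated ADAMTS-like protein, had 45.6 to 71.4 and 90.9 to 196 CPM (-1.35, SE 0.28, edgeR adjusted p = 0.0416). With 1 library left out these calls were lost for Ltbp2 in 3 of 12 cases (WT colon t1 or t6, WT jejunum t6), for Efemp1 in 4 (WT colon t1 or t6, WT jejunum t1 or t7) and for Thsd4 in 5 (those 4 and KO colon m1), with adjusted p up to 0.165. With KO colon t4 and KO jejunum m1 both left out, 2 partners passed between KO and WT colon, 0 in jejunum and 6 between WT colon and WT jejunum. Calls over all genes rose as well, to 309, 145 and 1056, from 81, 45 and 325 with all libraries.

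No gene of the other 3 lists was called in any of the 4 comparisons by edgeR with all libraries. With KO colon t4 and KO jejunum m1 both left out, 1 cross-linking gene passed in colon, where 309 of all genes did. Between WT colon and WT jejunum 1 receptor then passed, where 1056 of all genes did. With all libraries, 7 of 12 proteases and inhibitors had an unadjusted edgeR p below 0.05 between KO and WT colon (14.5% of all genes). So did 1 of 9 cross-linking genes and 0 of 8 receptors. In jejunum the counts were 4, 0 and 3, beside 13.2% of all genes. Proteases and inhibitors, of which 12 of 13 were tested, had median log2 fold changes of 0.82 in KO colon and 0.91 in KO jejunum, with 10 and 11 of 12 above 0. Without KO colon t4 the colon median was 0.31 (7 of 12 above 0), and without KO jejunum m1 the jejunum median was 0.89 (10 of 12). Timp2 (0.22, SE 0.30, and -0.04, SE 0.30) and Timp3 (0.44, SE 0.20, and 0.02, SE 0.20), inhibitors of matrix metalloproteinases, had the highest levels of that list. In colon without t4 they stood at 0.51 and 0.49, and in jejunum without m1 at 0.10 and -0.11. Among the 8 integrin receptor genes all 8 fold changes were above 0 in jejunum (median 0.68, or 0.49 without m1) and 4 in colon (median 0.08, or -0.10 without t4). Itgb1 had log2 fold changes of -0.03 (SE 0.29, or -0.21 without t4) in colon and 0.82 (SE 0.29, or 0.42 without m1) in jejunum. Itga5, the fibronectin receptor subunit, had 729 to 1794 CPM in KO and 184 to 222 CPM in WT jejunum, which do not overlap (log2 fold change 2.57, SE 0.54, edgeR adjusted p = 0.0867, or 2.18 without m1). The 9 other cross-linking and copper-handling genes had medians of -0.12 and 0.23, or -0.36 without t4 and 0.13 without m1. Loxl2, a further lysyl oxidase, had log2 fold changes of 0.08 (SE 0.58) in colon and 1.18 (SE 0.59) in jejunum, which became -0.86 without t4 and 0.40 without m1. Those of Pcolce, an enhancer of procollagen processing, were -1.16 (SE 0.41) and -0.77 (SE 0.41), or -1.78 without t4 and -1.09 without m1, and Pcolce passed in colon when both libraries were left out (-1.77, edgeR adjusted p = 0.0247).

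The profile of Eln over the 12 bulk libraries was compared with the 14753 other genes at an average of at least 1 log2 CPM by the mean absolute difference of centred log2 CPM. The 5 nearest genes were Tgfbi (0.522), Bgn (0.571), Mfsd2b (0.576), Igfbp3 (0.585) and Tac1 (0.590). Of the members Lox was nearest to Eln (0.602, a distance that would rank 8 among those genes), followed by Mfap4 (rank 64), Loxl1 (rank 225) and Fbln2 (rank 281), and Fbn2 was among the least like it (rank 13671). All 12 libraries entered these ranks, and the part of KO jejunum m1 and KO colon t4 in them was not tested. Tgfbi and Bgn were, like Eln, highest in KO jejunum m1 (804 and 1085 CPM) and at 118 to 129 and 97.5 to 159 CPM in WT jejunum.

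In the nuclei data 2632 WT and 1585 KO nuclei were kept, with medians of 1698 and 1981 UMIs (unique molecules, here the deposited counts divided by 2, since every gene value was even). Between the libraries 11 cell barcodes were shared. With 1 library per genotype there is no test, and intervals cover counting error only. Clusters were built without the members and pathway genes. Smooth muscle-like nuclei numbered 893 in WT and 427 in KO, in 5 clusters: numbers 2, 3 and 8 held most of the WT nuclei, and numbers 4 and 11 most of the KO nuclei. Their summed smooth muscle markers were 26300 CPM in WT and 22637 in KO, with none of 10 at 0, and fibroblast markers stood at 1645 and 2532 CPM (1 of 8 at 0 in KO). Markers of vascular mural cells, which also make elastin and formed no cluster of their own, stood there at 477 and 902 CPM, with 2 of 7 at 0 in each library. The part of these markers in the Eln levels was not tested. Fibroblast-like nuclei numbered 133 in each library.

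Among WT nuclei the members divided by cell class. Fbln1 was concentrated in fibroblast-like nuclei, at 767 CPM (95% exact Poisson interval 657 to 890), which gave 55.1% of its 314 UMIs, against 7.31 CPM in smooth muscle-like nuclei. Fbn1 was also highest there (421 CPM, 341 to 515), with 354 CPM (237 to 508) in lymphatic endothelial-like nuclei. Fbn2 instead came mainly from smooth muscle-like nuclei, which held 64.8% of its 284 UMIs. Among whole classes its CPM was highest in interstitial cells of Cajal-like nuclei (210 CPM, 134 to 312), the pacemaker cells of the gut. Smooth muscle-like cluster 11 on its own stood higher, as given below. Eln was highest in blood endothelial-like nuclei (1303 CPM, 984 to 1692, from 56 UMIs in 24 nuclei). For Fbln2 and Fbln5 the class with the largest share of UMIs was enteric glia-like nuclei, the support cells of the gut's nerves (37.9% of 319 and 46.6% of 131). Loxl1 was highest in mesothelial-like nuclei (111 CPM, 85.4 to 142), the outer lining of the gut. The leading class depended on the measure. By share of UMIs it was enteric glia-like for Eln (27.3% of 730) and Loxl1 (25.7% of 300). For Fbn1 it was smooth muscle-like (33.8% of 704). By CPM Fbln5 was highest in blood endothelial-like nuclei (93.1 CPM from 4 UMIs). Lox (14 UMIs), Mfap4 (33) and Mfap5 (50) were sparse in all WT nuclei together.

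**Figure D3:**
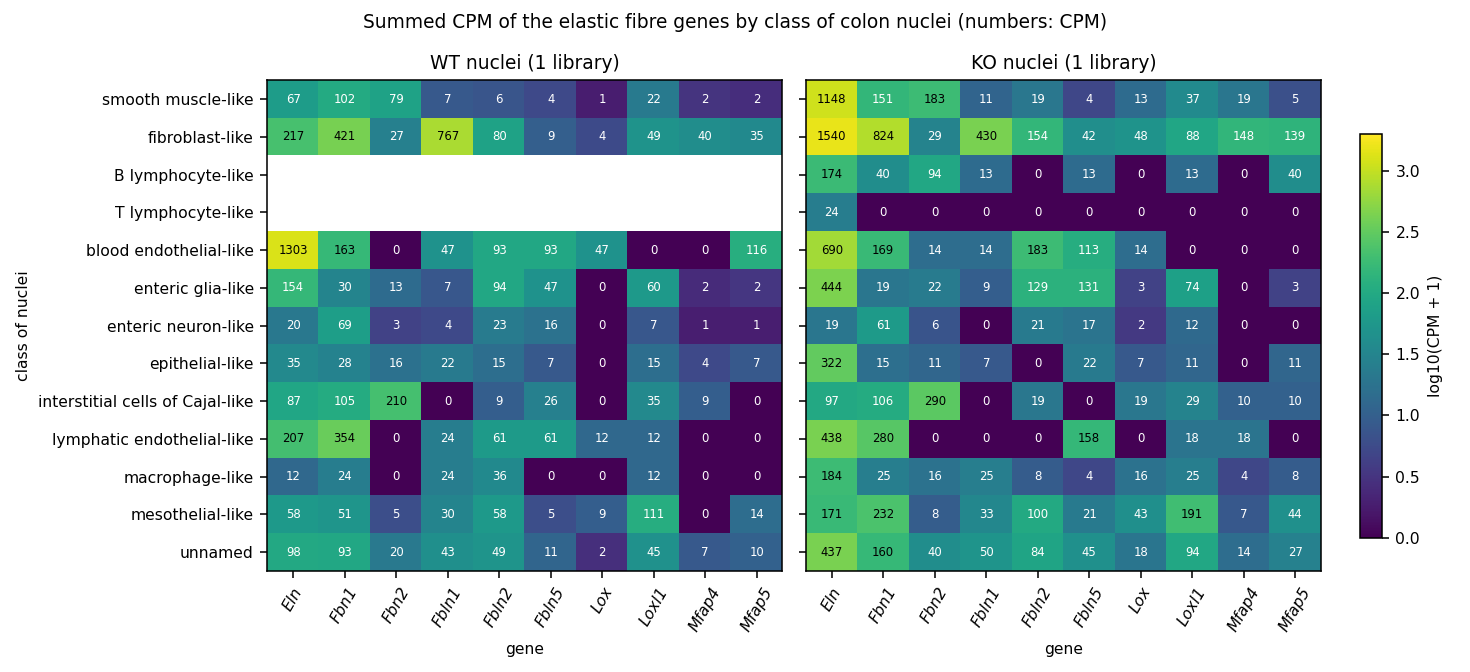
Summed CPM of the 10 elastic fibre genes (columns) by class of colon nuclei (rows) in the WT and the KO library, coloured on a log10 scale, with blank rows for classes of fewer than 20 nuclei. Fbln1 is concentrated in the fibroblast-like row in both libraries, and the Eln column is brighter in KO in the smooth muscle-like (1148 against 66.7 CPM) and fibroblast-like (1540 against 217 CPM) rows.

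The KO library was set beside the WT library in the same classes, as a description only for smooth muscle-like nuclei. Eln stood there at 66.7 CPM in WT (155 UMIs, interval 56.6 to 78.0) and 1148 CPM in KO (1717 UMIs, 1095 to 1204), 17.2 times as high. Of 5223 genes with at least 100 UMIs, 11.0% were at least 1.5 times as high in KO, but Eln was chosen on this ratio, so its place among them is no result. Eln UMIs were found in 12.99% of WT and 33.3% of KO smooth muscle-like nuclei, with median depths of 1892 and 2399 UMIs. With each nucleus thinned to 1000 UMIs, which left out 172 WT and 65 KO nuclei, the shares were 7.07% (exact 95% interval 5.31 to 9.20) and 25.4% (21.0 to 30.2). The UMIs were unevenly held: in KO the 43 nuclei with most Eln carried 85.6% of them, and the highest nucleus had 157.

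Epithelial-like nuclei, a class that should lack elastin, gave the background. Their share with an Eln UMI was 4.13% in WT (15 of 363 nuclei, median depth 1445 UMIs) and 5.15% in KO (7 of 136, median depth 1348 UMIs), and 2.47% and 3.49% after thinning. Their summed level was 35.2 CPM in WT and 322 CPM in KO, where a single nucleus held 80 of 87 UMIs. Macrophage-like nuclei had 1 Eln UMI in WT (50 nuclei) and 45 in KO (9 of 142 nuclei), B lymphocyte-like nuclei 174 CPM in KO (13 UMIs), and enteric neuron-like nuclei 19.9 and 18.7 CPM. The shares in smooth muscle-like nuclei thus lay above those in epithelial-like nuclei in both libraries.

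Within smooth muscle-like nuclei the Eln levels differed between clusters. Cluster 11, led by Ctla2a and Chrdl2, had 78.7 CPM in WT (17 UMIs) and 2444 CPM in KO (1211 UMIs), and it made up 7.39% of WT and 19.9% of KO smooth muscle-like nuclei. Cluster 4, with Igfbp2, Fn1 and Postn among its leading genes, had 160 and 807 CPM (37 and 425 UMIs) and made up 16.0% and 39.8%. These clusters gave most of the 1717 Eln UMIs in KO. Cluster 2, led by Colec10, had 42.5 and 179 CPM, cluster 3 51.5 and 203 CPM, and cluster 8 83.8 and 130.5 CPM. Eln was chosen on this contrast, so its KO and WT levels by cluster are a description only. KO was above WT in all 5 clusters, in cluster 3 from 13 KO UMIs in 6 nuclei. The counting intervals do not cover the uneven spread of UMIs over nuclei. They overlapped in cluster 8 alone (58.7 to 116 and 71.3 to 219). The share of cluster 8 nuclei with an Eln UMI was 14.02% in WT and 12.2% in KO. The KO levels of clusters 2, 3 and 8 lay within the range of KO classes not expected to make elastin. Those stood at 18.7 CPM in enteric neuron-like, 24.1 in T lymphocyte-like (1 UMI), 174 in B lymphocyte-like and 184 in macrophage-like nuclei. Epithelial-like nuclei stood at 322 CPM, with 80 of 87 UMIs in a single nucleus. That level alone placed cluster 3 (203 CPM) within the range. Only clusters 4 and 11 lay above all of these classes. The KO share of nuclei with an Eln UMI was 25.3% in cluster 2 (median depth 3498 UMIs) and 11.5% in cluster 3 (1082.5). It was 5.15% in epithelial-like (1347.5) and 6.34% in macrophage-like nuclei (1055.5).

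**Figure D4:**
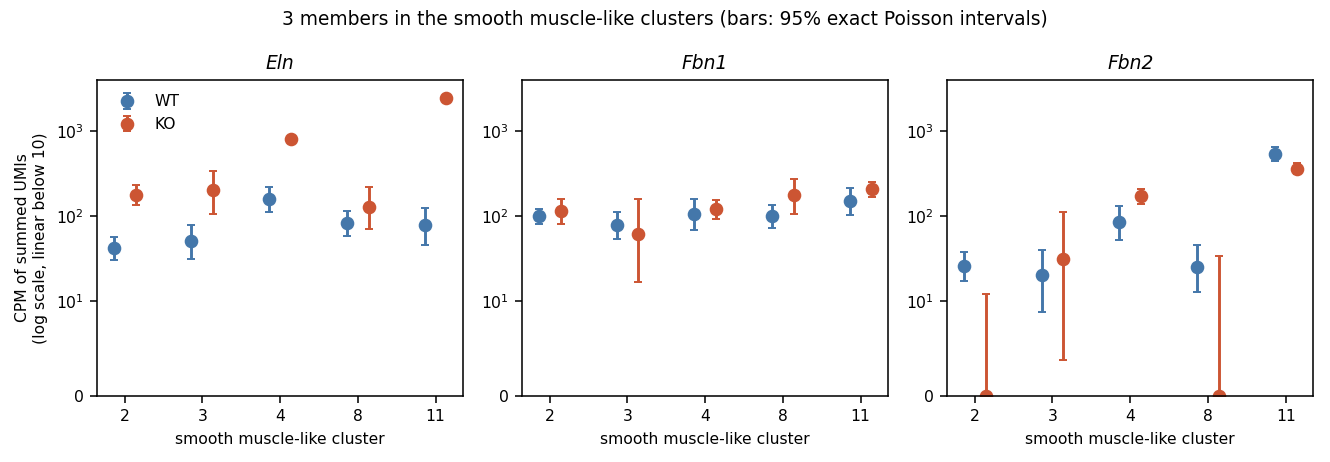
CPM of Eln, Fbn1 and Fbn2 (log axis, linear below 10) in the 5 smooth muscle-like clusters, with WT in blue, KO in red and 95% exact Poisson intervals as bars. Eln is highest in KO clusters 11 (2444 CPM) and 4 (807 CPM), whereas Fbn2 is highest in cluster 11 of both libraries (542 and 365 CPM).

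Fbn2, one of the genes that lead cluster 11, was not higher in KO there. Fbn2 had 542 CPM in WT (448 to 650) and 365 in KO (314 to 422) in cluster 11, and 86.5 and 173 CPM in cluster 4. No Fbn2 UMI was seen in KO clusters 2 and 8, against 28 and 11 UMIs in WT. Over all smooth muscle-like nuclei Fbn2 was 79.1 CPM in WT and 183 CPM in KO, so its level there was higher in the KO library, whereas the bulk KO means were lower in both tissues. The size of that ratio depended on the processing: its log2 value of 1.21 was 2.29 with at least 1000 UMIs a nucleus, 2.15 with called doublets kept and 0.76 as a mean over nuclei. Fbn1 was 102 CPM in WT and 151 CPM in KO, and its intervals overlapped in each of the 5 clusters.

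In fibroblast-like nuclei Eln stood at 217 CPM in WT (161 to 287) and 1540 in KO (1428 to 1658), and was present in 18.05% and 56.4% of the nuclei (median depths 1292 and 2268 UMIs), or 13.3% and 44.4% after thinning, which left out 50 and 25 nuclei. It was higher in KO in both fibroblast-like clusters, 177 and 816 CPM in cluster 10, with Pdgfra and Kcnn3 among its leading genes, and 291 and 2096 CPM in cluster 13, led by Ccn5 and Cilp. Cluster 13 held 37 of 133 WT and 69 of 133 KO nuclei. Fbn1 was 421 and 824 CPM, Fbln2 79.8 and 154, Loxl1 48.7 and 88.1, Mfap4 39.9 and 148 and Mfap5 35.4 and 139 CPM. Fbln1 was lower in the KO library, at 767 (657 to 890) and 430 CPM (371 to 494), with 948 and 771 CPM in cluster 10 and 430 and 168 CPM in cluster 13. Mfap5 was found almost wholly in cluster 13 (8 of 8 fibroblast-like UMIs in WT, 62 of 63 in KO). Lox had 1 UMI in WT and 22 in KO.

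The KO library was not higher in every class. In blood endothelial-like nuclei Eln was 1303 CPM in WT and 690 CPM in KO (511 to 912, 49 UMIs in 36 nuclei). In interstitial cells of Cajal-like nuclei it was 87.4 and 96.8 CPM from 10 UMIs each. Enteric glia-like nuclei had 154 and 444 CPM of Eln, 93.9 and 129 CPM of Fbln2 and 47.3 and 131 CPM of Fbln5. Mesothelial-like nuclei had 111 and 191 CPM of Loxl1 and 51.2 and 232 CPM of Fbn1, but 1 of their 3 clusters (number 17) held 96 KO nuclei and 1 WT nucleus and may be particular to that library.

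Open chromatin regions were listed separately for each library, 35003 in WT and 26493 in KO, so that presence in 1 list shows no difference. Within 1000 bases of the annotated start a region was listed for Fbln2 and Fbln5 in both libraries, for Fbn2, Lox and Loxl1 in the WT list alone, and for Eln in the KO list alone. The Eln region at chr5:134747817-134748898 (mm10) spanned 1082 bases, began 494 bases upstream of the start and had 58 counts over the KO nuclei, 13 of them in smooth muscle-like and 10 in fibroblast-like nuclei. In the WT list the region nearest to the Eln start lay 57997 bases away. The Loxl1 region at chr9:58312749-58313962 had 166 counts in WT, 46 of them in smooth muscle-like nuclei, and the Lox region 104 and 34. No region within 1000 bases of the start was listed for Fbn1, Fbln1, Mfap4 or Mfap5 in either library. The Fbln5 regions (86 counts in WT, 50 in KO) cover the whole printed Fbln5 sequence. Counts this low do not allow a comparison of the genotypes.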

How the data were processed

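Per the submitters' processing notes, STAR 2.0.4b, Subread, featureCounts 1.4.5, edgeR and Cell Ranger were used with GRCm38 and mm10. Which tool made which file, and the use of strand, were not given in the sources used here. For the bulk libraries the authors deposited raw counts by Ensembl identifier (40757 rows, of which 276 repeated an identifier and were dropped) and 10x matrices of counts per nucleus for genes and open chromatin regions. Members and lists were chosen with earlier results of these data known.

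Bulk counts of the 12 libraries were fitted together in edgeR 4.0.16 (TMM, filterByExpr, quasi-likelihood test, R 4.3.3), with Benjamini-Hochberg adjustment over 20886 genes and a threshold of 0.05. The code was tested on simulated data. Alternatives used DESeq2 1.42.0, limma 3.58.1, other scalings and filters, the replicate block and leaving out each library.

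Every deposited gene count in the nuclei matrices was even, so counts were divided by 2 and called UMIs. Nuclei with at least 500 UMIs and at most 5% mitochondrial UMIs were kept, and Scrublet, which may have missed some, removed 7 WT (0.265%) and 10 KO (0.627%) nuclei. Nuclei were clustered in scanpy 1.11.5 on 3000 variable genes, 30 components, 15 neighbours and Leiden resolution 1, with no integration. A cluster was named from at least 3 markers at least 2-fold higher than elsewhere, and cluster 8, where 2 classes tied, was settled as smooth muscle-like after the data were seen. All 10 members were named in each comparison, with list genes past the threshold, the 2 most abundant genes of each list and the 5 genes nearest to Eln. Shares were compared after thinning to 1000 UMIs. Tags (t1, m1) name libraries, and the main fit does not pair them. Deviations from the group mean in same-tag libraries of 1 genotype correlated at -0.16 to 0.10 across tissues. With 3 libraries a group this cannot settle whether equal tags mark 1 animal.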

Additional observations from a re-analysis of the deposited data

How the results depend on the processing

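Members called between KO and WT numbered 0 in colon and 0 in jejunum under each alternative but DESeq2, which called 1 (Lox) and 3 (Eln, Lox and Mfap4). For WT colon against WT jejunum the 2 calls became 0 with the tag, and 0 with the animal, as replicate block, and ranged from 1 to 2 with 1 library left out. Under these blocks the edgeR adjusted p was 0.0561 and 0.124 for Fbln1 and 0.144 and 0.249 for Mfap4. Over all genes, edgeR called 81 in colon, 45 in jejunum, 0 for the difference and 325 for WT tissue. DESeq2 called 960, 805, 37 and 1160, limma voom 95, 87, 0 and 349, and the tag block 0, 0, 0 and 97. With the animal block the last 2 counts were 0 and 29, and with only the groups compared colon, jejunum and WT tissue gave 0, 21 and 904. Leaving out 1 library gave 7 to 180, 2 to 172, 0 to 1 and 79 to 557.

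Signs turned for members with small changes. In colon Fbn1 was -0.036 with limma voom, -0.32 with the tag as replicate block and -0.56 without KO colon t4 and KO jejunum m1, and Fbln5 was -0.23 with that block. In jejunum Fbn1 was -0.20 with the block and -0.26 without both libraries. For the colon change minus the jejunum change, leaving out both gave 0.99 for Eln, -0.18 for Fbln2, 0.24 for Lox and 0.10 for Loxl1, and Lox was 0.044 with total counts, 0.14 with limma voom and 0.75 with the block. With 1 library left out, Fbn1 ranged from -0.57 to 0.33, Fbln5 from -0.058 to 0.24 and Mfap5 from -0.76 to 0.13 in colon, and Fbn1 from -0.26 to 0.59 in jejunum. The tissue difference ranged from -2.49 to 1.12 for Eln, -0.94 to 0.37 for Fbn1, -0.29 to 0.91 for Fbn2, -0.56 to 0.99 for Fbln2, -1.83 to 1.91 for Lox and -0.45 to 0.38 for Loxl1. The cause was not tested.

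The log2 ratio of KO to WT Eln in smooth muscle-like nuclei was 4.11, and 4.66 with at least 1000 UMIs a nucleus (class of 504 WT and 257 KO nuclei), 4.52 with called doublets kept (615 and 280) and 3.49 as a mean over nuclei, an alternative added after seeing the data, as were leaving out both libraries and the deepest nuclei. With 3 libraries a group, differences as uneven as those of Eln and Lox were not resolved.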
